A study of Mus musculus with 6 samples.

Results

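miR-146a and miR-146b are a pair of mouse microRNAs (miRNAs) made from separate hairpins, and each hairpin can release a 5p and a 3p arm. All 4 arms, mmu-miR-146a-5p, mmu-miR-146a-3p, mmu-miR-146b-5p and mmu-miR-146b-3p, had a row of their own among the 1926 mature miRNA rows of the deposited table, and none was merged with another miRNA. They were chosen by name, with earlier results of these data known, so their values in SE-BDEV against CON-BDEV are given as a description and the fit's p-values support nothing about them. The small RNA came from extracellular vesicles, the membrane particles that cells release, isolated from mouse brain. There were 3 libraries from mice that had experienced status epilepticus, a prolonged seizure (SE-BDEV 1 to 3), and 3 from matched controls (CON-BDEV 1 to 3). The titles give day 10 for all 6. Strain, age, the means of inducing seizures and the start of the day count are not stated in the labels. Nor do they tie the libraries to separate animals, so the spread behind every p-value may be technical.

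miR-146a is known as a feedback regulator of innate immune signalling. The transcription factor NF-kB, activated downstream of Toll-like and interleukin-1 receptors, induces its primary transcript, and the mature miRNA represses the adaptor proteins IRAK1 and TRAF6 that carry the signal from those receptors. miR-146b has the same seed, the stretch by which a miRNA pairs with its targets, and so shares many predicted targets, while its hairpin lies at another locus with its own control. In brain, miR-146a is known from microglia and astrocytes and has been studied as a miRNA of inflammation in epilepsy.

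The mature sequences, from RefSeq (GRCm38.p6, all 4 arms matched by name), are printed 5′ to 3′ with bases 2 to 8, the seed, in capitals. They are shown because the 5p arms, which hold nearly all of the signal, are near copies of each other, while the 3p arms are not.
miR-146a-5p: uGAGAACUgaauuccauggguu
miR-146b-5p: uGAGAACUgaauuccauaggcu
miR-146a-3p: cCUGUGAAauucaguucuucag
miR-146b-3p: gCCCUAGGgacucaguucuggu
The 5p arms are both 22 bases long and identical at 20 positions. Counted from 1 at the 5′ end, the substitutions from miR-146a-5p to miR-146b-5p are G18A and U21C. Their first 17 bases are thus the same, and among the 1679 mature miRNA names of the RefSeq table no other starts with those 17 bases or carries the seed GAGAACU. A read that ends before position 18 fits both miRNAs, and the labels do not record whether such reads were split, dropped or counted for both, so the split between the 5p arms and their sum can both depend on it. The 3p arms match at 4 of 22 positions in an ungapped comparison, and their seeds, CUGUGAA and CCCUAGG, were each found in no other name of that table.

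In GRCm38.p6, a later build than the mm9 that the submitters' processing notes name, the miR-146a hairpin (gene symbol Mir146) lies at chr11:43374397-43374461 on the minus strand. It overlaps no other gene of GENCODE M21 (GRCm38). The nearest protein-coding gene on the side of higher coordinates is Pttg1, 45.8 kb away, and on the side of lower coordinates Atp10b, 112 kb away. The miR-146b hairpin (Mir146b) lies at chr19:46342762-46342870 on the plus strand, within an intron of Mfsd13a and on the same strand as it. Nfkb2, which encodes the p100/p52 subunit of NF-kB, ends 30.4 kb from the miR-146b hairpin on the same strand. Other protein-coding genes lie nearer, namely Cuedc2 (4.06 kb), 2310034G01Rik (5.33 kb), Fbxl15 (12.3 kb) and Psd (15.6 kb).

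The libraries held 4400167 to 9391887 reads assigned to miRNAs, counted from the smallest step between RPM values (miRNA reads scaled to a library total of 1000000), and 532 to 631 miRNAs above 0. As a check of the labelled tissue, the 11 listed neuronal miRNAs, such as miR-124-3p and miR-9-5p, were all above 0 and summed to 28756 to 35483 RPM in the CON-BDEV libraries and to 27129 to 49298 RPM in the SE-BDEV libraries. Among red-cell miRNAs all libraries had a 0 for miR-451a, miR-144-3p and miR-144-5p, while miR-486a-5p/486b-5p was at 83.6 to 199 RPM in the CON-BDEV libraries and 102 to 111 RPM in the SE-BDEV libraries. Both libraries numbered 3 stood apart through miR-24-3p, with 3544 RPM in CON-BDEV 3, 3128 RPM in SE-BDEV 3 and a listed 0 in the other 4.

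Both 5p arms were found in all 6 libraries, and both were at higher levels in the 3 SE-BDEV libraries than in the 3 CON-BDEV libraries. miR-146a-5p had 3.47 times the CON-BDEV mean in SE-BDEV, and miR-146b-5p had 1.78 times. The larger difference belonged to the miRNA with the larger spread: miR-146a-5p varied by 2.65 times between the lowest and the highest value within SE-BDEV, while the 3 SE-BDEV values of miR-146b-5p nearly coincided. The 3p arms were at or near 0. Vesicles from a whole tissue come from many cell types, and more vesicles from 1 cell type and more of a miRNA in each vesicle cannot be told apart in these libraries.

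mmu-miR-146a-5p, the guide strand of its hairpin, was at 10.9, 15.3 and 24.6 RPM in CON-BDEV 1, 2 and 3 and at 69.3, 77.9 and 29.3 RPM in SE-BDEV 1, 2 and 3. SE-BDEV 1 and 2 stood well above every control, whereas SE-BDEV 3 was only a little above CON-BDEV 3, the highest control. These values came from 48, 125 and 162 reads in CON-BDEV and 651, 389 and 198 reads in SE-BDEV. The exact 95% binomial intervals of CON-BDEV 3 (21.0 to 28.7 RPM) and SE-BDEV 3 (25.4 to 33.7 RPM) overlapped, so the gap that keeps the groups apart was not larger than counting error. Such intervals cover counting error only and take each read as independent. The labels do not state whether reads were collapsed by molecular identifier, and uncollapsed copies would make the intervals too narrow. The interval of SE-BDEV 3 did not reach those of SE-BDEV 1 (64.1 to 74.9 RPM) and SE-BDEV 2 (70.3 to 86.0 RPM). The spread within SE-BDEV was thus wider than the counting error of independent reads. The CON-BDEV mean was 17.0 ± 7.0 RPM (SD, n = 3). The SE-BDEV mean was 58.8 ± 25.9 RPM (SD, n = 3).

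mmu-miR-146b-5p was at 27.5, 36.3 and 38.8 RPM in CON-BDEV 1, 2 and 3 and at 61.0, 58.4 and 63.6 RPM in SE-BDEV 1, 2 and 3. The groups were separated by a clear gap, SE-BDEV higher, and SE-BDEV 3, low for miR-146a-5p, held the highest value here. The reads were 121, 296 and 255 in CON-BDEV and 573, 292 and 429 in SE-BDEV. The exact 95% binomial interval of the highest control, CON-BDEV 3, was 34.2 to 43.8 RPM, and that of the lowest seizure library, SE-BDEV 2, was 51.9 to 65.5 RPM. The counting error of independent reads thus did not bridge the groups. The CON-BDEV mean was 34.2 ± 5.93 RPM (SD, n = 3). The SE-BDEV mean was 61.0 ± 2.56 RPM (SD, n = 3).

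**Figure D1:**
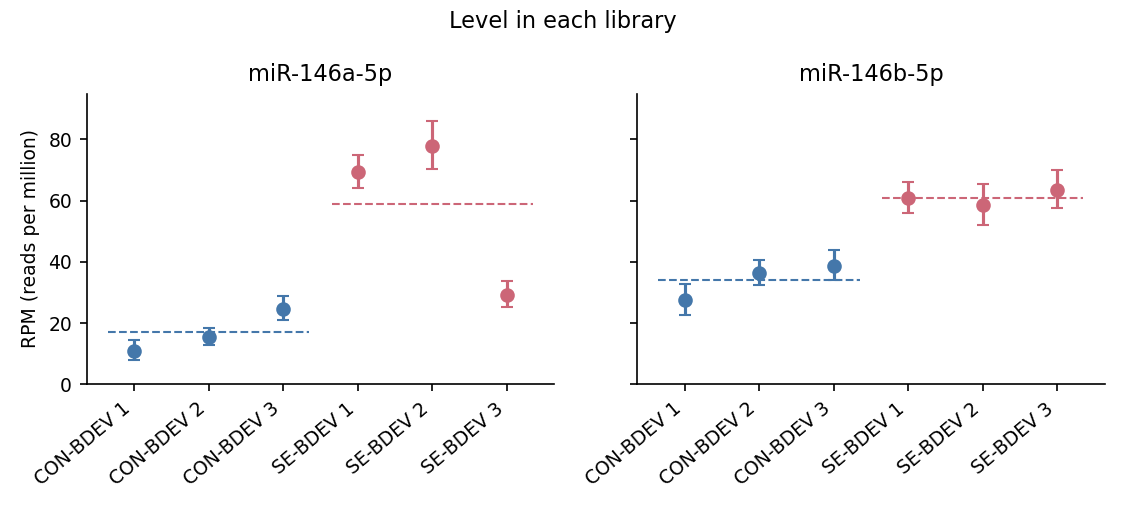
RPM of miR-146a-5p (left) and miR-146b-5p (right) in each library, CON-BDEV in blue and SE-BDEV in red, with exact 95% binomial intervals (counting error only) and dashed lines at the group means. miR-146a-5p in SE-BDEV 3 (29.3 RPM) sits near CON-BDEV 3 (24.6 RPM), while the SE-BDEV values of miR-146b-5p lie between 58.4 and 63.6 RPM.

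The 3p arms, the strands that are mostly discarded when the hairpin is processed, gave almost no signal. mmu-miR-146a-3p was listed at 0 in all 6 libraries. mmu-miR-146b-3p was listed at 0 in 5 libraries and at 0.912 RPM, 6 reads, in CON-BDEV 3. In that library the 3p arm made up 2.30% of the reads of both miR-146b arms (exact 95% binomial interval 0.848% to 4.94%). No value of a single read is listed in any library, the smallest listed value being 2 reads or 0.213 to 0.455 RPM, so a 0 does not show that no read was present. For comparison, 62 other hairpins had a stronger arm with a mean within 2-fold of that of miR-146a-5p. A minority of them, 15 (24.2%), had the other arm at 0 in all libraries, as miR-146a-3p was. Over all 62 the median share of the weaker arm was 5.12%. Among the 63 other hairpins within 2-fold of miR-146b-5p it was 3.72%. Both medians use means over the 6 libraries, whereas the 2.30% of miR-146b-3p is from CON-BDEV 3 alone, the only library where that arm was listed above 0.

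The shared seed makes the sum of both 5p arms a measure of its own. It was 38.4, 51.7 and 63.4 RPM in CON-BDEV 1, 2 and 3 and 130, 136 and 92.9 RPM in SE-BDEV 1, 2 and 3. The groups did not overlap, and SE-BDEV 3 was again the lowest seizure library. The mean of the sum went from 51.2 ± 12.5 RPM in CON-BDEV to 119.8 ± 23.5 RPM in SE-BDEV (SD, n = 3), a ratio of 2.34.

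The make-up of the pair also differed between libraries. miR-146b-5p was the more abundant in every CON-BDEV library, where miR-146a-5p made up 28.4%, 29.7% and 38.8% of the sum in CON-BDEV 1, 2 and 3. In SE-BDEV 1 and 2 miR-146a-5p was the more abundant, at 53.2% (exact 95% binomial interval 50.3% to 56.0%) and 57.1% (53.3% to 60.9%). In SE-BDEV 3 it made up 31.6% (28.0% to 35.4%), within the range of the controls. The shares of the groups therefore overlapped, the CON-BDEV mean being 32.3% ± 5.7 and the SE-BDEV mean 47.3% ± 13.8 (SD, n = 3). Both arms have the same length, and the shares are of reads. Differences in how well each sequence is captured in a library were not measured.

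**Figure D2:**
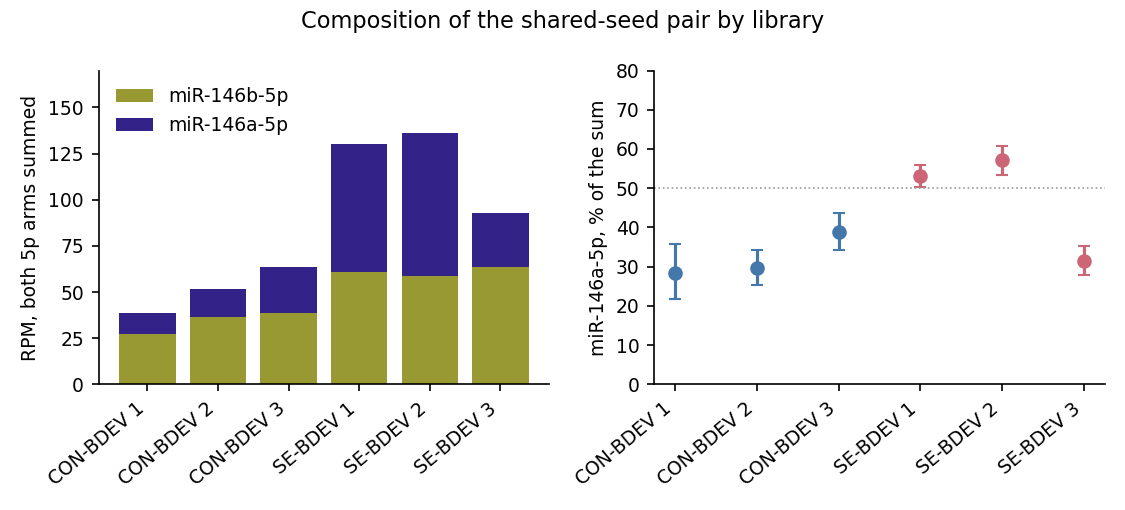
Left, RPM of miR-146b-5p and miR-146a-5p stacked for each library. Right, the share of miR-146a-5p in their sum in percent, with exact 95% binomial intervals (counting error only) and a dotted line at 50%. SE-BDEV 1 and 2 lie above the line at 53.2% and 57.1%, and SE-BDEV 3 at 31.6% lies among the controls.

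The fit over all miRNAs was made with limma on log2(RPM + 1) for the 308 miRNAs whose mean over the 6 libraries reached 10 RPM, and p-values were adjusted over all 308 by the Benjamini-Hochberg method. Of the 4 arms, the 2 5p arms passed this filter on mean RPM. Fold changes on this scale understate the change of low miRNAs. miR-146a-5p had a log2 difference (SE-BDEV minus CON-BDEV) of 1.69 ± 0.42 (SE, limma adjusted p = 0.105) and miR-146b-5p of 0.83 ± 0.30 (SE, limma adjusted p = 0.344). Neither passed the threshold of 0.05, which 0.974% of the tested miRNAs passed, all higher in SE-BDEV. At an unadjusted p under 0.05, which 8.12% of tested miRNAs met with higher values, both did. Both were also among the miRNAs whose groups did not overlap with SE-BDEV higher, 10.7% of those tested. Ordered by limma p, miR-146a-5p came 4th, directly after the 3 called miRNAs, which were miR-142a-5p, miR-21a-5p and miR-155-5p, and miR-146b-5p came 13th. A log2 difference as large as that of miR-146a-5p was reached by 5 of the 308 miRNAs, itself included, and one as large as that of miR-146b-5p by 18.

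In the authors' deposited table, made with DESeq2, miR-146a-5p had a log2 fold change of 1.75 ± 0.54 (SE, adjusted p = 0.0744) and miR-146b-5p of 0.75 ± 0.29 (SE, adjusted p = 0.265). The authors' deposited table thus called neither at 0.05, a threshold that 1.12% of its miRNAs with an adjusted p passed. For miR-146b-3p the authors' deposited table gave a log2 fold change of -3.47 ± 3.96 (SE) and no adjusted p. That value rests on the 6 reads of CON-BDEV 3.

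**Figure D3:**
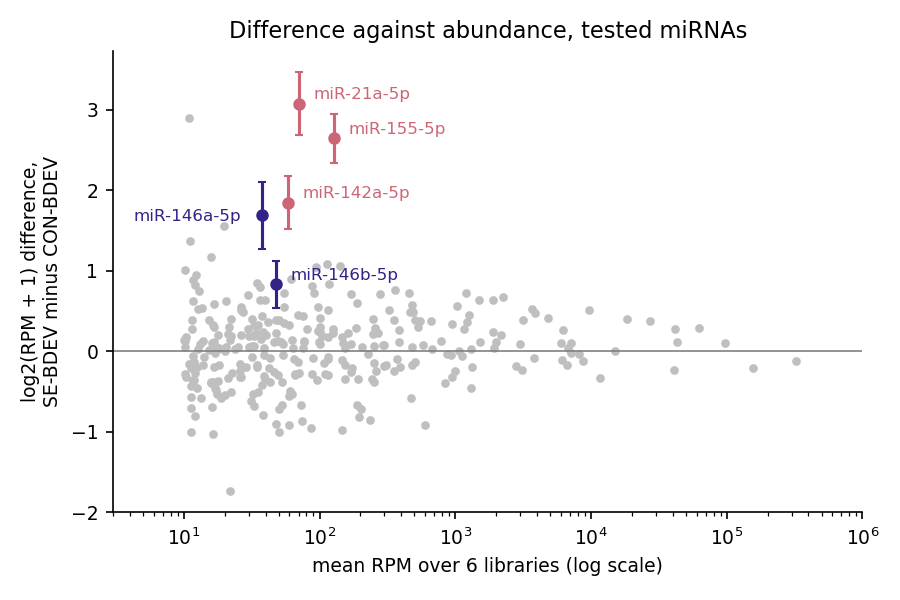
Log2(RPM + 1) difference, SE-BDEV minus CON-BDEV, against mean RPM over 6 libraries (log axis) for the 308 tested miRNAs. Bars are moderated standard errors, the 5p arms of miR-146a and miR-146b are in dark blue and the 3 called miRNAs in red. miR-146a-5p at 1.69 lies just below miR-142a-5p at 1.85, and miR-146b-5p at 0.83 lies at the upper edge of the other miRNAs.

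The libraries numbered 3 differed least in miR-146a-5p, and leaving them out moved its difference more than that of miR-146b-5p. Between libraries of the same number, miR-146a-5p was 6.35, 5.07 and 1.19 times higher in SE-BDEV for numbers 1, 2 and 3. For miR-146b-5p the same ratios were 2.22, 1.61 and 1.64. Without both libraries numbered 3 the log2 difference of miR-146a-5p was 2.42 ± 0.36 (SE, limma adjusted p = 0.0170) and that of miR-146b-5p was 0.90 ± 0.37 (SE, limma adjusted p = 0.571). miR-146a-5p also passed without SE-BDEV 3 alone (2.12, limma adjusted p = 0.0148) and without CON-BDEV 2 (1.66, limma adjusted p = 0.00932). It did not pass without CON-BDEV 1, CON-BDEV 3, SE-BDEV 1 or SE-BDEV 2, where its log2 difference was 1.43 to 1.98. Whether what sets both libraries numbered 3 apart in miR-24-3p also bears on miR-146a-5p was not tested.

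With the replicate number as a block miR-146a-5p passed (log2 difference 1.69 ± 0.35 SE, limma adjusted p = 9.34e-05), as did 3.25% of the tested miRNAs, and miR-146b-5p did not (limma adjusted p = 0.136). The standard errors of limma borrow spread from the other miRNAs. From its own same-number differences of 2.56, 2.27 and 0.24 on the log2(RPM + 1) scale, the standard error of miR-146a-5p would be 0.73, and from its own values without the block 0.54. For miR-146b-5p its own values give 0.15 with or without pairing, under the limma values of 0.30 and 0.32. The adjusted p of miR-146a-5p thus rests on a standard error smaller than its own spread gives, and that of miR-146b-5p on a larger one.

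The pair also differed in spread between libraries. The within-group SD of log2(RPM + 1) was 0.66 for miR-146a-5p, larger than that of 271 of the 308 tested miRNAs (88.0%), and 0.19 for miR-146b-5p, larger than that of 25 (8.12%). The median over all tested miRNAs was 0.39. At like abundance the medians were close to that value: among the 101 miRNAs with a mean within 2-fold of that of miR-146a-5p the median was 0.41, and among the 97 within 2-fold of miR-146b-5p it was 0.40. Within SE-BDEV the SD on this scale was 0.75 for miR-146a-5p and 0.0595 for miR-146b-5p. The exact 95% binomial intervals of miR-146b-5p in SE-BDEV 1, 2 and 3 (56.1 to 66.2, 51.9 to 65.5 and 57.7 to 69.9 RPM) overlapped one another. Its spread there was thus not larger than counting error, and it rests on 3 values.

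**Figure D4:**
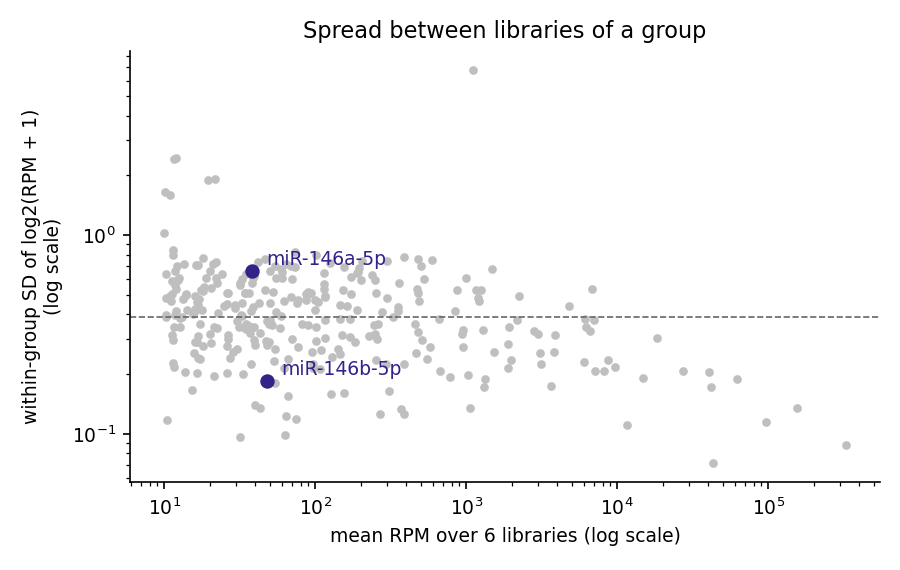
Within-group SD of log2(RPM + 1) against mean RPM over 6 libraries for the 308 tested miRNAs (both axes log), with the median of 0.39 as a dashed line. miR-146a-5p (0.66) lies above most miRNAs of its abundance and miR-146b-5p (0.19) below most.

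In abundance both were middling to low. miR-146a-5p ranked 256th of the 308 tested miRNAs by mean RPM in CON-BDEV and 161st in SE-BDEV, and miR-146b-5p ranked 199th and 157th. The miRNAs next to miR-146a-5p in CON-BDEV give a sense of what others at that level did. miR-1968-5p went from 17.9 ± 2.51 to 14.0 ± 5.24 RPM and miR-7240-5p from 17.4 ± 13.2 to 9.49 ± 1.5 RPM (SD, n = 3). Just below it, miR-1843a-3p went from 16.7 ± 2.94 to 17.7 ± 5.19 RPM and miR-410-5p from 16.7 ± 0.331 to 16.9 ± 4.92 RPM (SD, n = 3). The groups overlapped for all 4 neighbours.

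The miRNA whose pattern over the 6 libraries was most like that of miR-146a-5p was miR-142a-5p, a miRNA of microglia and white blood cells. Likeness was the root mean square difference of log2(RPM + 1) after subtracting each miRNA's mean, over 300 other miRNAs above 0 in all libraries, and all values share the same 6 libraries. It was 0.32 for miR-142a-5p, 0.47 for miR-6240 and 0.61 for miR-6540-5p, against a median of 1.07. miR-142a-5p was at 20.9, 25.7 and 26.5 RPM in the CON-BDEV libraries and 93.2, 121 and 64.3 RPM in SE-BDEV 1, 2 and 3, so SE-BDEV 3 was its lowest seizure library too. The other arm of that hairpin, miR-142a-3p, went the other way, at 10.1, 17.4 and 21.9 RPM in SE-BDEV 1, 2 and 3. A low SE-BDEV 3 was thus not shared by both miR-142a arms. miR-6240 was at 60.2, 45.0 and 72.1 RPM in the CON-BDEV libraries and 177, 135 and 74.1 RPM in the SE-BDEV libraries. miR-146b-5p came 10th in likeness to miR-146a-5p (0.66).

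For miR-146b-5p the most alike were miR-15a-5p (0.14), miR-153-5p (0.17) and miR-16-5p (0.17), against a median of 0.52. miR-15a-5p was at 27.3, 34.6 and 31.0 RPM in the CON-BDEV libraries and 52.5, 45.0 and 48.7 RPM in SE-BDEV 1, 2 and 3. miR-16-5p, far more abundant, was at 6252 to 9201 RPM in the CON-BDEV libraries and 10893 to 11858 RPM in the SE-BDEV libraries. Here miR-146a-5p came 199th of 300. The difference between the pair is the same 0.66 from either side, and only its rank differs. It lay below the median of 1.07 for miR-146a-5p and above that of 0.52 for miR-146b-5p.

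miRNAs whose transcripts NF-kB or inflammatory stimuli are known to induce were listed beside the pair, 14 arms of which 10 passed the filter. Of these, 2 rose past the threshold in the limma fit, which 0.974% of all tested miRNAs passed, and none fell, and the median log2 difference of the 10 was 0.75 against 0.06 over all tested miRNAs. The other 8 had a median of 0.69, 1 of them with a negative value. Both arms of miR-132, miR-212 and miR-9 are among these 8, so the 8 are not independent of each other. This list and those below were chosen with earlier results of these data known. Their counts and medians are therefore a description and no test of the lists. miR-155-5p, which is induced with miR-146a in activated macrophages and microglia, was at 37.0, 27.7 and 39.4 RPM in the CON-BDEV libraries and 219, 259 and 189 RPM in SE-BDEV 1, 2 and 3 (log2 difference 2.65, limma adjusted p = 0.000284). miR-21a-5p, raised in many settings of tissue injury, was at 7.05, 17.2 and 21.0 RPM in the CON-BDEV libraries and 97.5, 119 and 163 RPM in SE-BDEV 1, 2 and 3 (log2 difference 3.08, limma adjusted p = 0.000498). SE-BDEV 3 was thus the lowest seizure library for miR-155-5p, as for miR-146a-5p, and the highest for miR-21a-5p.

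The miR-132 and miR-212 arms, induced by neuronal activity and also by inflammatory stimuli, came next. The log2 difference was 1.06 for miR-132-5p (limma adjusted p = 0.237, or 0.0487 with the replicate block and 0.0917 with the block over miRNAs above 0 in all libraries), which the authors' deposited table called at 0.98 (adjusted p = 0.00608), 0.95 for miR-212-5p and 0.80 for miR-212-3p (limma adjusted p = 0.438 for both). miR-155-3p and miR-147-3p, the latter an arm of a miRNA induced in stimulated macrophages, were listed at 0 in all libraries. The passenger arm miR-21a-3p, under the filter and named after its values were seen, was at 0 in the 3 controls and in SE-BDEV 3, and at 3.09 and 1.60 RPM in SE-BDEV 1 and 2.

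Among 15 miRNAs reported to act on NF-kB or Toll-like receptor signalling, 10 passed the filter and none passed the threshold in limma, in either direction. None of the 10 was called with the replicate block or in the authors' deposited table either, and 3 of them, miR-15a-5p, miR-16-5p and let-7i-5p, had an unadjusted limma p under 0.05 with higher values in SE-BDEV, against 8.12% of all tested miRNAs. Their median log2 difference was 0.26. The largest were miR-15a-5p at 0.64, miR-16-5p at 0.51 and miR-210-3p, a hypoxia-induced miRNA, at 0.46, or 0.0651 without SE-BDEV 1. miR-223-3p, a myeloid miRNA that restrains inflammatory signalling and is also named after its values were seen, was below the filter at 3.41, 2.58 and 0 RPM in the CON-BDEV libraries and at 6.18, 7.21 and 4.30 RPM in the SE-BDEV libraries.

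The microglial and leukocyte list had all 8 arms above 0 and summed to 1858 to 2489 RPM in the CON-BDEV libraries and to 2249 to 2912 RPM in the SE-BDEV libraries, so the summed ranges overlapped. miR-342-3p, the most abundant of them, made up 78.1% to 93.9% of the sum in each library. The other 7, summed without it after its values were seen, were at 153, 141 and 182 RPM in CON-BDEV 1, 2 and 3 and at 508, 586 and 494 RPM in SE-BDEV 1, 2 and 3, and there the groups did not overlap. Of the list's 6 tested members 3 rose past the threshold in limma, against 0.974% of all tested, and none fell, the same 3 miRNAs that were called over the whole table. The others were miR-142a-3p at a log2 difference of 1.37 (limma adjusted p = 0.344), miR-150-5p, a lymphocyte miRNA, at -0.27 and miR-342-3p at 0.11. The part of immune cell number in the values of miR-146a-5p and miR-146b-5p was not tested.

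Of the 7 tested astrocyte miRNAs 1 rose, against 0.974% of all tested, namely miR-21a-5p, which the lists above hold as well, and miR-143-5p was listed at 0. The next were miR-449a-5p at 0.89, miR-29b-3p at 0.58 and miR-143-3p at 0.34, with a median of 0.34 over the list and summed ranges of 7014 to 8184 RPM in the CON-BDEV libraries and 6243 to 11627 RPM in the SE-BDEV libraries. The value of miR-29b-3p rested on SE-BDEV 3, at 1165 RPM against 294 to 392 RPM in the other 5, and was -0.0191 without it. No tested member of the other lists passed in limma, with or without the block, or in the authors' deposited table. At an unadjusted limma p under 0.05 there was 1 each in the neuronal, endothelial, oligodendrocyte and other-organ lists, all with higher values in SE-BDEV, and 0 in the erythroid list. The 11 neuronal miRNAs had a median log2 difference of 0.31, led by miR-132-3p at 0.71, miR-9-3p at 0.67 (0.36 without CON-BDEV 1) and miR-137-3p at 0.63. That of miR-137-3p rested on SE-BDEV 3, at 3390 RPM against 840 to 1253 RPM in the other 5, and was 0.11 without it. The endothelial miR-126a-5p and miR-126a-3p were at 0.72 and 0.47, with sums of 2828 to 4276 RPM in the CON-BDEV libraries and 4116 to 6342 RPM in the SE-BDEV libraries. The oligodendrocyte miR-338-3p and miR-219a-2-3p were at 0.72 and 0.19 (the latter -0.0499 without SE-BDEV 1), with sums of 137 to 170 RPM in the CON-BDEV libraries and 198 to 296 RPM in the SE-BDEV libraries, and miR-219a-5p was listed at 0. Of miRNAs from other organs, which summed to 214 to 262 RPM in the CON-BDEV libraries and to 298 to 354 RPM in the SE-BDEV libraries, the muscle miR-1a-3p was at 0.83, the liver miR-122-5p at 0.55 and the muscle miR-206-3p at -0.28. The erythroid miR-486a-5p/486b-5p was at -0.0748, or 0.33 without CON-BDEV 1.

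**Figure D5:**
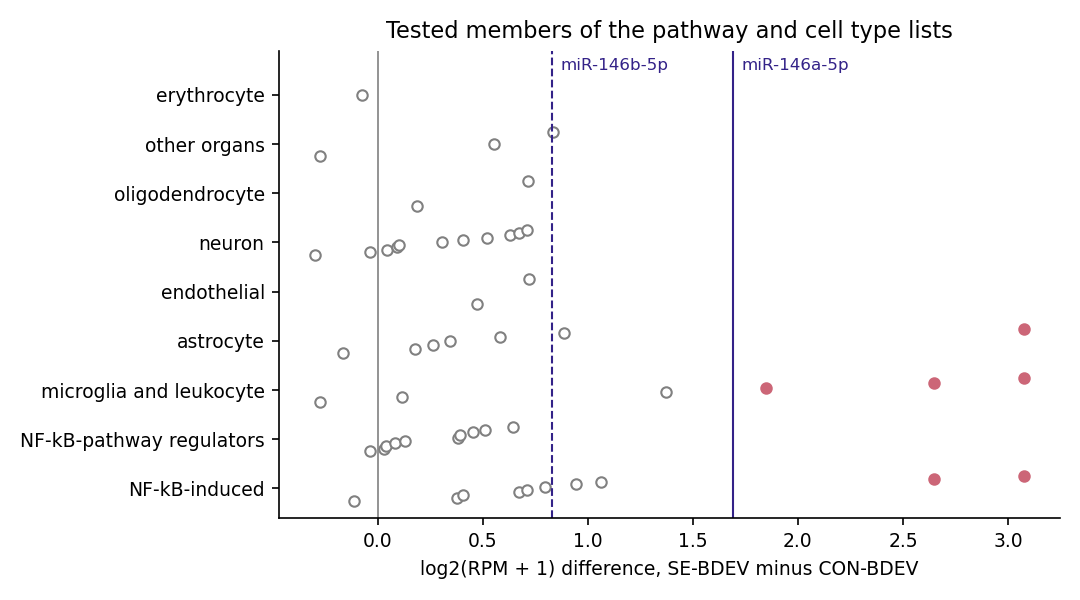
Log2(RPM + 1) difference, SE-BDEV minus CON-BDEV, of each tested member of the pathway and cell type lists (filled red, limma adjusted p under 0.05; open grey, not past it), with vertical lines at miR-146a-5p (1.69, solid) and miR-146b-5p (0.83, dashed). The filled points, miR-21a-5p at 3.08, miR-155-5p at 2.65 and miR-142a-5p at 1.85, recur in several lists, and miRNAs may belong to more than 1 list.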

How the data were processed

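The authors deposited RPM values for 1926 miRNA features in 6 libraries, 803 of them above 0 in at least 1, from RNA purified with the miRNeasy Micro Kit and libraries of the QIAseq miRNA Library Kit, per the labels' protocols. Their second deposited table compares 803 features and holds a normalized mean signal, log2 fold changes, a test score and p-values. DESeq2 and mm9 are named in the submitters' processing notes. The aligner, the counter and any collapsing by molecular identifier are not stated in the labels.

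In each library all RPM values were whole multiples of 1 step, taken as 1 read (100% of values within 0.001 step). These reads gave the mean signal of the authors' deposited table within a relative difference of 1.39e-09. No value of 1 read is listed, so no count model was fitted, although count-based fits had been planned.

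limma 3.58.1 (R 4.3.3, statmod 1.5.0) was run on log2(RPM + 1), with a mean trend and the robust option (two-sided tests), for miRNAs whose mean reached 10 RPM. It was tested on simulated data. Intervals are exact binomial (Clopper-Pearson, scipy 1.17.1). Figures used matplotlib 3.10.9.

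The members, the lists and the rule for named miRNAs were chosen with earlier results of these data known. Named were the 4 arms, of each list the called members and up to 3 others of largest absolute log2 difference, the 3 miRNAs of most like pattern to each 5p arm, and the 2 neighbours on each side of miR-146a-5p in CON-BDEV level.

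Groups share replicate numbers. Correlations of deviations from the group means were 0.216, 0.202 and 0.462 for numbers 1, 2 and 3, all above the bound of 0.1 for treating numbers as pairs, but -0.0639, -0.0614 and -0.0806 without miR-24-3p. Between unlike numbers, with miR-24-3p, they were 0.200 and 0.336 where neither library was numbered 3. Where 1 library was numbered 3 they were -0.410 to -0.270. The same-number values therefore do not show that the numbers are pairs. The labels name no pairs.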

Additional observations from a re-analysis of the deposited data

How the results depend on the processing

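The sign of both 5p arms was the same under all 19 alternatives run for each. Only another scaling or the authors' deposited table could have changed it, since every SE-BDEV value was above every CON-BDEV value for both arms. Of the 19 alternatives, miR-146b-5p passed under none (log2 difference 0.69 to 0.93, adjusted p from 0.136 to 0.753). miR-146a-5p passed under 8 (1.30 to 2.42, adjusted p from 9.34e-05 to 0.699). With the replicate block miR-146a-5p was at 1.69 (limma adjusted p = 9.34e-05), or 0.000336 with miRNAs listed at 0 anywhere left out and 0.000111 without miR-24-3p. It also passed with array weights (1.72, limma adjusted p = 0.0128), with miRNAs listed at 0 anywhere left out and no block (1.69, 0.0431) and without both libraries numbered 3 (2.42, 0.0170). Leaving out 1 library gave 1.43 to 2.12 for miR-146a-5p and 0.69 to 0.93 for miR-146b-5p. Median-of-ratios scaling gave 1.62 and 0.76. The runs that leave out miRNAs listed at 0 and the blocked run without miR-24-3p were chosen after seeing the data.

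Against 3 called miRNAs in all, 1 was called with a filter of 100 RPM, where 129 were tested and no member of the family, 6 with array weights, 10 with the replicate block, 10 with the block without miR-24-3p, 4 of 301 tested with the block over miRNAs above 0 in all libraries (4 of the 10, with 3 of them not tested there), and 7 in the authors' deposited table. Leaving out 1 library gave 2 to 8, the 8 being without CON-BDEV 2. Of the other miRNAs named in the lists, the block changed the call of miR-132-5p (limma adjusted p = 0.0487, or 0.0917 over miRNAs above 0 in all libraries). The filter of 100 RPM tests fewer miRNAs, and the cause of the other changes was not tested. The planned count-based fits were not run. Without a filter miR-146b-3p was at -0.31, and miR-146a-3p, at 0 throughout, gave no value. With 48 to 162 reads of miR-146a-5p in CON-BDEV, counting error alone spans the gap between CON-BDEV 3 and SE-BDEV 3.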
